A study of Mus musculus with 6 samples.

Results

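The genes described here are 10 genes of the naive and quiescence program of T cells, taken by name: Tcf7, Lef1, Satb1, Bach2, Foxp1, Foxo1, Igfbp4, Actn1, Evl and Rasgrp2. All probes whose annotated symbol was one of these were used. The annotation named 18 such probes among 45281, for 9 of the 10 genes; it named none for Tcf7, which is not analysed here. Regulatory T cells (Treg) of 2 groups were compared, each with 3 arrays. The cLP Treg came from the lamina propria of the colon, the tissue under its epithelium, and the MLN Treg from a gut-draining lymph node, the mesenteric one. All mice were C57BL/6 of the genotype labelled Foxp3gfp at steady state, and both groups are labelled TCRβ+CD4+Foxp3+. Total RNA was amplified in a 2-round reaction, biotin-labelled and hybridised to Illumina bead arrays. No label gives an age, a pool size or the animal behind each sample. The p-values therefore describe spread between samples that may be technical.

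A T cell that has not met its antigen is kept small, non-dividing and recirculating by a set of transcription factors. TCF-1 (Tcf7) and LEF-1 (Lef1) are related DNA-binding proteins that can pair with beta-catenin, SATB1 organises chromatin loops, BACH2 holds back effector genes, and FOXP1 and FOXO1 are forkhead factors that restrain growth and keep homing receptors on. The other genes of the program work at the cell's edge: Rasgrp2 encodes an exchange factor that activates the GTPase Rap1, Evl and Actn1 encode an actin filament elongator and an actin crosslinker, and Igfbp4 encodes a secreted binder of insulin-like growth factors. Central Treg of lymphoid organs resemble naive T cells in this program, and effector Treg of tissues have in general lost part of it.

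Promoter windows of the 10 genes were read from RefSeq (build GRCm38.p6), each from 250 bases before to 50 bases after the outermost annotated start. They are shown for the 3 genes that fell most in cLP Treg and, beside them, for Foxp1, which rose, since these genes passed the test in opposite directions. Capitals mark the GC box GGGCGG, a motif of SP and KLF family proteins, on either strand, which was added to the search after the windows were read. The Igfbp4 window is chr11:99040994-99041293 on the plus strand, the Evl window chr12:108554470-108554769 on the plus strand, the Actn1 window chr12:80260314-80260613 on the minus strand and the Foxp1 window chr6:99520944-99521243 on the minus strand.
Igfbp4: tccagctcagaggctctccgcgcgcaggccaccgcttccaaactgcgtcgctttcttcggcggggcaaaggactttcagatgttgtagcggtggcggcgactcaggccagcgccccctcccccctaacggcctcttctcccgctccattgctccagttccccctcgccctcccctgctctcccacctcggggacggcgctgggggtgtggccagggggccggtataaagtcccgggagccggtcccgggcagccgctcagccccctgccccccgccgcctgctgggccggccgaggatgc
Evl: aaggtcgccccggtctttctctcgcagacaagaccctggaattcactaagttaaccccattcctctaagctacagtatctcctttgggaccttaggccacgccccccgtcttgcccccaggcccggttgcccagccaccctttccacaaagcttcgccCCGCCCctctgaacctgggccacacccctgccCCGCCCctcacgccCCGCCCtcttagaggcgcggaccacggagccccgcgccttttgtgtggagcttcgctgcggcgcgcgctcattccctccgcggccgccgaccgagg
Actn1: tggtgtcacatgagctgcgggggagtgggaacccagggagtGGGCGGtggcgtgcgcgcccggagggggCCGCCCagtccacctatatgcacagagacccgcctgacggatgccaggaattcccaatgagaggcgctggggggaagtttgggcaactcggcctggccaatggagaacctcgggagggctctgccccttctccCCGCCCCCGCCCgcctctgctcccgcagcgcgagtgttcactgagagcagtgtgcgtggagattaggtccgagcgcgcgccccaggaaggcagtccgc
Foxp1: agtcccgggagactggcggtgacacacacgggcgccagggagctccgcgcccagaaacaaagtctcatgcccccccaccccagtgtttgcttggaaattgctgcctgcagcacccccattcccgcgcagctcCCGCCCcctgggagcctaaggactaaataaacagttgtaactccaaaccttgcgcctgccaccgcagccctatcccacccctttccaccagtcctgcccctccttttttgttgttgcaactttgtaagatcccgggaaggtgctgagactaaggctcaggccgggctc

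The Actn1 window held 4 GC boxes, the Evl window 3, the Foxp1 window 1 and the Igfbp4 window 0. Of the 10 genes, 7 had at least 1 GC box, against 35.7% of all 32851 RefSeq windows of the same length. This share and those below count every window of a gene, where each of the 10 genes was read in 1, so the sets are not alike. GC content was above the median of all windows, 52.7%, in 9 of the 10 windows, and ran from 50.3% for Bach2 to 80.0% for Rasgrp2. Both strands were also searched for the TCF and LEF motif as CTTTGAA or CTTTGAT, the forkhead motif GTAAACA and the AP-1 and BACH motif TGANTCA. Each occurred in 0 of the 10 windows. Over all windows the TCF and LEF motif occurred in 8.7%, the forkhead motif in 3.6% and the AP-1 and BACH motif in 7.8%. A match describes the letters of a window and is neither a binding site nor a cause.

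Detection differed little between the arrays, with 34.3% to 35.4% of probes detected in cLP Treg and 32.7% to 35.1% in MLN Treg. The median signal of detected over undetected probes was 2.61 to 3.18 on cLP arrays against 3.33 to 4.10 on MLN arrays. All 8 markers of Treg and T cells, Foxp3 among them, were detected on every array of both groups, and their summed intensity was 74561 to 78234 on cLP arrays against 61146 to 62493 on MLN arrays. Ctla4 was the brightest of them and weighs most in that sum, with a mean of 15.45 in cLP Treg against 14.39 in MLN Treg (log2). Cd3d, Cd3e, Cd3g, Cd4 and Foxp3 had differences of -0.67, -0.60, -0.22, -0.07 and -0.01 that did not pass. In that list Il2ra fell by 1.67 ± 0.36 (standard error; limma, adjusted p = 0.0112), Ctla4 rose by 1.05 ± 0.20 (0.00679), and Ikzf2 rose by 2.22 ± 0.59 (0.0249), a call lost without a detection filter (0.092) and without MLN sample 1 (0.0918) or MLN sample 3 (0.0874). Among 10 markers of stroma and endothelium, 3 were higher in cLP Treg (Acta2, Col3a1 and Vim, the last also made by lymphocytes), and the summed intensity of that list was 5113 to 5359 on cLP arrays against 1218 to 1577 on MLN arrays. Col1a1, Pdgfrb and Cdh5 of that list were detected on no array. The Acta2 probe was detected on 0 MLN arrays and was at least 33.7-fold higher in cLP Treg, a bound set by the lowest signal that counted as detected. Without any 1 of the cLP samples another probe took its place. The differences were then 0.83, 0.93 and 0.95, in place of 5.95 measured against background. Of 4 B cell markers named on the array, Cd79b was lower in cLP Treg, Pax5 and Cr2 were detected on no array, and the list's summed intensity was 88.5 to 107 on cLP arrays against 333 to 587 on MLN arrays. The plasma cell list summed to 4920 to 5023 on cLP arrays against 2455 to 2476 on MLN arrays, with Xbp1 higher in cLP Treg and Sdc1, Tnfrsf17 and Derl3 on no array. That sum is mostly Xbp1 alone, with a mean of 12.26 in cLP Treg against 11.24 in MLN Treg (log2). The mast and innate lymphoid list summed to 129 to 404 on cLP arrays against 64.3 to 128 on MLN arrays, with Kit higher and Cpa3, Fcer1a, Ms4a2 and Ncr1 on no array. The Kit call was lost in 10 of 22 alternatives: with the replicate block (adjusted p = 0.0511), without a detection filter (0.0974), and without cLP sample 1 (0.0628), cLP sample 2 (0.0627), MLN sample 1 (0.0959) or MLN sample 2 (0.0958). The macrophage and dendritic list summed to 101 to 162 on cLP arrays against 143 to 235 on MLN arrays, with Lyz2 lower. Itgam, Flt3 and Itgax of that list were detected on no array. The Lyz2 call was lost in 7 of 22 alternatives: without a detection filter (adjusted p = 0.0617) and without cLP sample 2 (0.0580), MLN sample 1 (0.0807) or MLN sample 2 (0.0752). The CD8 T cell list summed to 2396 to 4069 on cLP arrays against 4576 to 5600 on MLN arrays with 0 called. Cd8a, Gzmk and Eomes of that list were detected on no array, so its sum is mostly that of Cd8b1. The epithelial list summed to 227 to 1074 on cLP arrays against 316 to 437 on MLN arrays, also with 0 called and with Vil1 on no array. The part of these cells in the results below was not tested. In sorted bulk samples, fewer cells of a type and less RNA per cell cannot be told apart.

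In cLP Treg the 4 genes of adhesion, the cytoskeleton and growth factor binding (Igfbp4, Evl, Actn1 and Rasgrp2) and the transcription factor gene Lef1 were lower, by 3.09-fold to 16.1-fold. Foxp1 and Satb1 were higher, by 3.90-fold and 1.98-fold, and Foxo1 did not pass the threshold. Bach2 was at background on all 6 arrays. Intensities are given on the log2 scale after background correction and quantile normalisation, and each gene was reported by its probe with the highest mean among probes detected on at least 3 arrays. A gene was called where its adjusted p from limma (Benjamini-Hochberg over 9157 genes) was under 0.05. Of the 8 members measured, 5 were lower and 2 higher, with a median difference of -1.77. Of all genes tested 32.5% were called, 20.4% lower and 12.1% higher, and the median was -0.21. The reported probe of Rasgrp2 was detected on 2 cLP arrays and 3 MLN arrays, and those of the other 7 on all 6. Levels of different probes cannot be set against each other.

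**Figure D1:**
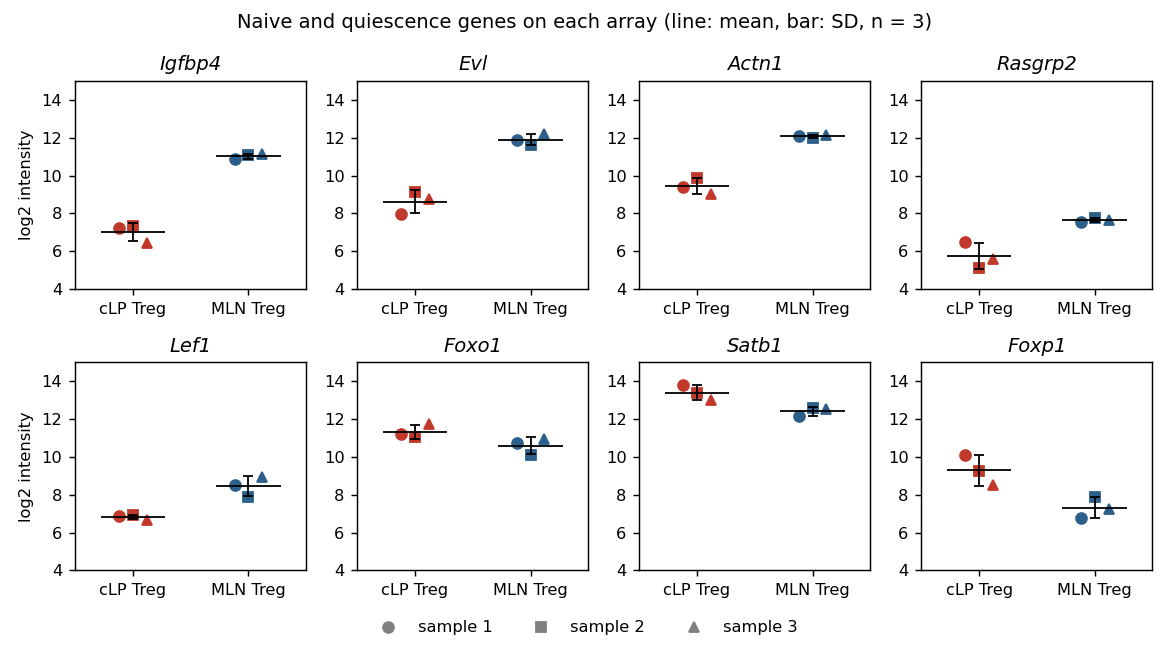
Log2 intensity (vertical axis) of the 8 measured members on each array, cLP Treg left and MLN Treg right in each panel. Circles, squares and triangles are samples 1, 2 and 3, lines are means and bars SD (n = 3), and the 5 panels from Igfbp4 to Lef1 have all cLP points below all MLN points.

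Igfbp4, whose protein holds insulin-like growth factors away from their receptor, fell most among the measured members. Its log2 intensity was 7.23, 7.34 and 6.46 in cLP Treg samples 1, 2 and 3, against 10.86, 11.08 and 11.12 in MLN Treg samples 1, 2 and 3. The groups were separated by a gap of 3.51, wider than the spread in either. Igfbp4 fell by 4.01 on the log2 scale with a standard error of 0.29, or 16.1-fold (adjusted p from limma, 0.000186). The value after ± is the standard error for the other differences below. Igfbp4 ranked 12 of 9157 from the lowest difference.

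Evl, a member of the Ena/VASP family that lengthens actin filaments, had 7.96, 9.15 and 8.75 in cLP Treg, against 11.90, 11.59 and 12.21 in MLN Treg. The lowest MLN value stood 2.44 above the highest cLP value. Evl fell by 3.28 ± 0.34 (9.73-fold lower; limma, adjusted p = 0.000726). Actn1, which crosslinks actin filaments and ties them to integrins, had 9.41, 9.86 and 9.03 in cLP Treg, against 12.11, 11.98 and 12.14 in MLN Treg. The groups were 2.12 apart, with an SD of 0.41 in cLP Treg against 0.09 in MLN Treg. Actn1 fell by 2.64 ± 0.26 (6.25-fold lower; limma, adjusted p = 0.000581).

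Rasgrp2, which loads Rap1 with GTP and so readies integrins for adhesion, had 6.48, 5.13 and 5.57 in cLP Treg, against 7.55, 7.73 and 7.67 in MLN Treg. The groups did not overlap, but cLP Treg sample 2 was not detected, so part of the cLP mean is background. Rasgrp2 fell by 1.92 ± 0.35 (3.79-fold lower; limma, adjusted p = 0.00589). The size of this fall depended on the background step: the differences were -1.41 with an offset of 50, -1.09 in the authors' deposited values and -0.95 without background correction, each time past the threshold.

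Among the transcription factors, Lef1 had 6.88, 6.91 and 6.69 in cLP Treg, against 8.53, 7.90 and 8.94 in MLN Treg. The cLP samples were closely grouped (SD 0.12), the MLN samples less so (SD 0.52), and no values overlapped. Lef1 fell by 1.63 ± 0.30 (3.09-fold lower; limma, adjusted p = 0.0059). Its difference was -1.07 without background correction, still past the threshold.

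Foxp1, which holds naive T cells in quiescence, moved the other way. It had 10.10, 9.26 and 8.50 in cLP Treg, against 6.80, 7.91 and 7.27 in MLN Treg. All cLP values were the higher ones, with 0.59 between the groups and an SD of 0.80 in cLP Treg against 0.56 in MLN Treg. Foxp1 rose by 1.96 ± 0.45 (3.90-fold; limma, adjusted p = 0.0148). Leaving out MLN sample 1 (adjusted p = 0.0617) or MLN sample 3 (0.0555) ended the call.

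Satb1, the chromatin organiser, had 13.82, 13.36 and 13.04 in cLP Treg, against 12.14, 12.57 and 12.55 in MLN Treg. The groups were 0.47 apart. Satb1 rose by 0.99 ± 0.27 (1.98-fold; limma, adjusted p = 0.0287). It no longer passed without cLP sample 1 or 2, or without MLN sample 1, 2 or 3 (differences 0.77 to 1.07, adjusted p = 0.0608 to 0.113). With median scaling the difference was 0.73 (adjusted p = 0.0805).

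Foxo1, whose protein drives genes of homing and survival when growth signals are low, had 11.24, 11.04 and 11.75 in cLP Treg, against 10.72, 10.11 and 10.96 in MLN Treg. The values did not overlap, yet the groups were 0.08 apart and the spread within each was larger than this gap. The difference was 0.75 ± 0.31 and did not pass the threshold (limma, adjusted p = 0.102). Groups that did not overlap were seen in 47% of all genes tested and in all 8 measured members.

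Bach2 was represented by 1 probe, which was not well above background. Its deposited signals were 107.7, 77.2 and 89.3 in cLP Treg, against 112.8, 113.2 and 82.7 in MLN Treg, and its detection p ran from 0.658 to 0.864 over the 6 arrays. No level or difference of Bach2 can therefore be given, and the probe was annotated to a cDNA clone and not to a RefSeq transcript.

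**Figure D2:**
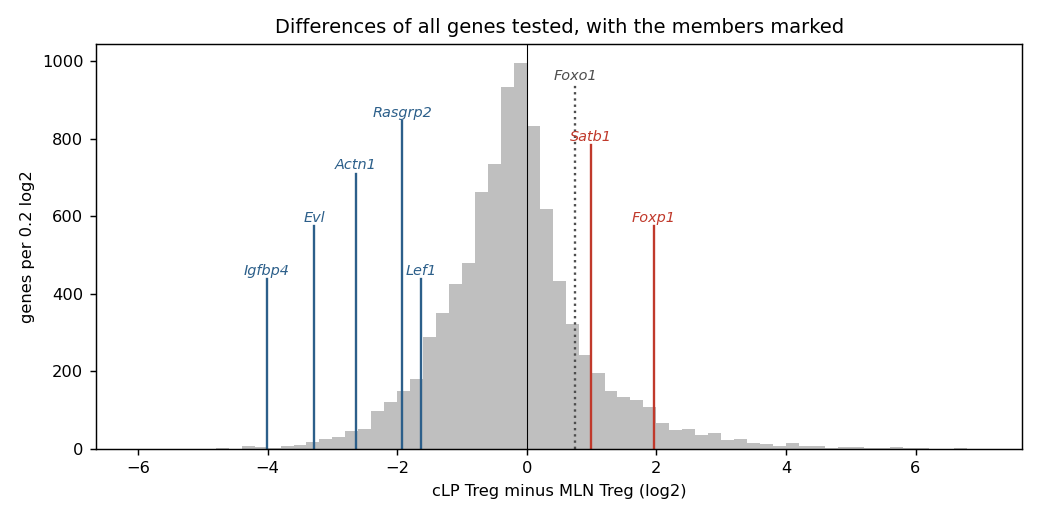
Number of genes (vertical axis, per 0.2 log2) by cLP Treg minus MLN Treg difference on the log2 scale (horizontal axis), for all 9157 genes tested, with the measured members marked. Igfbp4, Evl and Actn1 stand far in the lower tail, the dotted line is Foxo1, which did not pass the threshold, and Satb1 and Foxp1 lie on the higher side.

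Several members had more than 1 probe. Of the 18 probes, 11 passed the detection filter. In a fit over all 16215 detected probes, of which 31.9% were called, 14.5% higher and 17.4% lower, 6 member probes were lower and 4 higher. Each of these 4 (Foxp1, both Satb1 probes and a further Foxo1 probe) was highest in cLP sample 1 and lowest in cLP sample 3. Over all genes, cLP sample 1 was the highest cLP array in 30.9%. The part of this shared sample order in the rises was not tested. The other Igfbp4 probe (ILMN_2694955) had 6.23, 6.05 and 5.59 in cLP Treg, against 8.70, 9.19 and 9.97 in MLN Treg. It fell by 3.33 ± 0.36 (limma, adjusted p = 0.000903). Both Igfbp4 probes had every cLP value below every MLN value.

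The other Foxo1 probe (ILMN_2509340) had 10.71, 9.15 and 7.32 in cLP Treg, against 6.32, 4.65 and 4.53 in MLN Treg, where only sample 1 was detected. It rose by 3.89 ± 0.85 (limma, adjusted p = 0.0129), with an SD of 1.69 in cLP Treg. This probe passed the detection filter only through cLP Treg, where it was higher. Its values in MLN samples 2 and 3 were background, so the size of the rise rests in part on background. Leaving out MLN sample 2 (adjusted p = 0.0516) or MLN sample 3 (0.0533) ended the call. With both Foxo1 probes averaged, Foxo1 rose by 2.32 (limma, adjusted p = 0.00583), so whether Foxo1 passed depended on the probe. The other Satb1 probe (ILMN_1240428) had 9.25, 8.15 and 6.88 in cLP Treg, against 5.33, 5.20 and 6.57 in MLN Treg, where only sample 3 was detected. It rose by 2.40 ± 0.63 (limma, adjusted p = 0.0242). This probe too passed the filter only through cLP Treg, so the same limit holds for its rise. Leaving out cLP sample 2 (adjusted p = 0.0638), MLN sample 1 (0.0858) or MLN sample 2 (0.087) ended that call.

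Whether probes of a gene differed in their cLP minus MLN difference was tested on the within-array difference of 4381 probe pairs, of which 18.1% passed. None of the 3 member pairs did: the other probe minus the reported probe was 3.14 ± 0.98 for Foxo1 (limma, adjusted p = 0.0675), 1.41 ± 0.51 for Satb1 (0.104) and 0.68 ± 0.33 for Igfbp4 (0.221). These pairs had an unadjusted p of 0.0141, 0.0264 and 0.0752.

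The 7 probes that did not pass the filter were those of Bach2, a second Foxp1 probe, 3 further Lef1 probes and 2 further Rasgrp2 probes. The Rasgrp2 probes were detected on 0 cLP arrays and on 2 MLN arrays each, with measured differences of -0.29 and -0.96. Of the Lef1 probes, ILMN_1239469 was detected on 0 arrays and ILMN_2648475 on 1 array of each group.

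**Figure D3:**
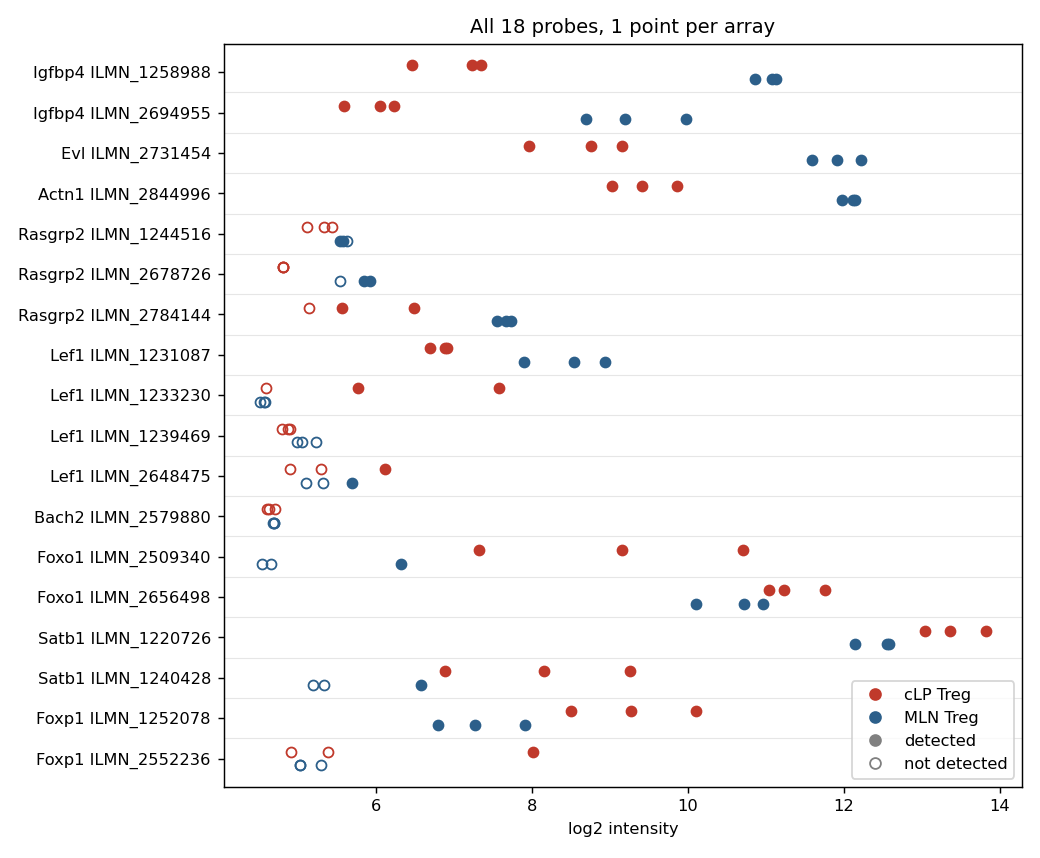
Log2 intensity (horizontal axis) of all 18 member probes, 1 point per array, cLP Treg above MLN Treg in each row, filled where the probe was detected. The probes of Igfbp4, Evl and Actn1 are detected on every array and separate widely, and each further probe of Lef1 and Rasgrp2 is undetected on at least 4 of the 6 arrays.

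Other genes of the pathways were read from 8 lists, some of which share genes. Like the members, the lists were chosen with earlier results of these data known, so their medians are no independent finding. In the list of naive and recirculation genes, 6 of 12 measured genes were lower and 2 higher, with a median of -0.93 against -0.21 over all genes. Nsg2, a vesicle protein marking recent thymic emigrants and naive T cells, fell by 3.90 ± 0.43 (limma, adjusted p = 0.000871), with a cLP mean of 7.56 (SD 0.87) against an MLN mean of 11.47 (SD 0.30), n = 3 each. Ly6c1 fell by 2.60 ± 0.34 (adjusted p = 0.00169), and the E protein inhibitor Id3, detected on no cLP array, was at least 5.27-fold lower, a bound set by the lowest signal that counted as detected. Ccr7, the lymph node homing receptor, rose by 1.63 ± 0.26 (adjusted p = 0.00379). Il7r, the interleukin 7 receptor, rose by 1.01 ± 0.27 (adjusted p = 0.0241), and its call ended without cLP sample 1 or 2 (adjusted p = 0.0595 and 0.0621) or MLN sample 1 or 2 (0.0956 and 0.0806), with the replicate block (0.0567) and with median scaling (0.77, 0.0566).

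Of 13 measured genes of quiescence and growth restraint, 4 were higher, 2 lower and 7 not past the threshold, with a median of 0.11. Runx1, a Runt family factor that represses T cell activation, rose by 2.70 ± 0.40 (limma, adjusted p = 0.00252). The cell cycle inhibitor Cdkn1b rose by 2.77 ± 0.67 (adjusted p = 0.0172), a call lost without MLN sample 1 (0.0675) or MLN sample 2 (0.0674) and without a detection filter (0.0712). Pik3ip1, an inhibitor of PI3 kinase, had a difference of -1.28 ± 0.31 (adjusted p = 0.0174) that lost its call without MLN sample 2 (0.0564) or MLN sample 3 (0.0693). Tsc1, a brake on the growth kinase mTOR, had a difference of -1.18 ± 0.28 by its reported probe (adjusted p = 0.0172), and its direction turned with the mean of its probes (1.73, adjusted p = 0.00141). The Tsc1 call also ended without cLP sample 2, MLN sample 1 (0.0643) or MLN sample 3 (0.0669).

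Among target genes of FOXO factors, 7 of 14 were higher and 4 lower, with a median of 0.37. With median scaling 5 were higher and 5 lower, without a detection filter 4 and 4, and in the authors' deposited values 6 and 5. Gabarapl1, an autophagy gene, rose by 2.39 ± 0.23 (limma, adjusted p = 0.000482), and Irs2, an adaptor of insulin and IGF receptors detected on no MLN array, was at least 5.24-fold higher (adjusted p = 0.0124), a call lost without a detection filter (0.0553). Txnip, an inhibitor of glucose uptake, fell by 1.36 ± 0.20 (adjusted p = 0.00252), and Klf2, a factor that turns on the egress receptor gene S1pr1, fell by 0.94 ± 0.22 (adjusted p = 0.0164). The Klf2 call ended without MLN sample 1 (0.0523), 2 (0.0732) or 3 (0.0507) with the filter applied again, and without MLN sample 2 alone (0.0672) where the genes of the full data were kept.

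Of 11 paralogues of the members measured, 4 were higher and 2 lower, with a median of 0.24. With median scaling 3 were higher and 4 lower, in the authors' deposited values 3 and 3, and without a detection filter 3 and 1. Enah, the Ena/VASP relative of Evl, rose by 1.94 ± 0.28 (limma, adjusted p = 0.00245), with a cLP mean of 11.49 (SD 0.42) against an MLN mean of 9.55 (SD 0.23). Igfbp7, a relative of Igfbp4 also made by endothelium and stroma, rose by 3.36 ± 0.56 (adjusted p = 0.00417), and its probe was detected on 2 MLN arrays. Foxo3, the relative of Foxo1, rose by 1.99 ± 0.36 (adjusted p = 0.00597). Actn4, the relative of Actn1, had a difference of 0.89 ± 0.29 (adjusted p = 0.0492). The Actn4 call was lost with median scaling, without background correction, in the authors' deposited values and without a detection filter. The 3 paralogues higher in those settings were Enah, Igfbp7 and Foxo3. Rasgrp1, which activates Ras below the T cell receptor, fell by 1.07 ± 0.22 (adjusted p = 0.00893). Foxp4 had a difference of -1.14 ± 0.31 (adjusted p = 0.0257), a call lost in 10 of 23 alternatives: without cLP sample 2 (0.0645), MLN sample 2 (0.0971) or MLN sample 3 (0.0857), without cLP sample 3 where the genes of the full data were kept, with the replicate block (0.0586), without a detection filter (0.0583) and with the median difference set to 0 (0.0559). Foxp3, a relative of Foxp1 and the lineage factor of Treg, averaged 13.58 (SD 0.26) on cLP arrays against 13.59 (SD 0.20) on MLN arrays, a difference that did not pass (adjusted p = 0.986). The differences between relatives were not themselves tested.

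Among partners of TCF-1 and beta-catenin, 1 of 12 was higher, 1 lower and 10 not past the threshold, with a median of -0.20. Gsk3b, a kinase that marks beta-catenin for destruction, had a difference of 1.46 ± 0.31 (limma, adjusted p = 0.0105), which was 0.19 as the mean of its probes and lost its call with median scaling (1.03, adjusted p = 0.0548). Pygo2, a nuclear cofactor of beta-catenin, had a difference of -0.91 ± 0.20 (adjusted p = 0.012), a call lost without MLN sample 1 (0.0545) or MLN sample 2 (0.0555). Axin2, a target of beta-catenin signalling, had a difference of -0.11 ± 0.23 (limma, adjusted p = 0.761). In the list of Rap1, integrin activation and actin partners, 4 of 14 were lower and 1 higher, with a median of -0.33. Sipa1, which switches Rap1 off, fell by 2.29 ± 0.21 (adjusted p = 0.000396) and was detected on 1 cLP array. Rassf5, an effector of Rap1 also known as RAPL, fell by 1.06 ± 0.24 (adjusted p = 0.0137), and Apbb1ip, the Rap1 adaptor RIAM, by 1.39 ± 0.32 (adjusted p = 0.0154), which lost its call without MLN sample 2 (0.0651). The focal adhesion protein Zyx fell by 1.41 ± 0.24 (adjusted p = 0.00471), and Vcl, which encodes vinculin, rose by 1.96 ± 0.33 (adjusted p = 0.00437). The integrin genes Itgal and Itgb2 had differences of -0.21 and -0.44 that did not pass.

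Of 8 measured genes of the insulin-like growth factor pathway, 3 were lower and 1 higher, with a median of -0.33. Igf1r, the receptor whose ligands IGFBP4 binds, had 8.19, 7.37 and 6.10 in cLP Treg, against 9.55, 9.56 and 10.29 in MLN Treg. The groups did not overlap, and the cLP samples were the more spread (SD 1.05 against 0.42 in MLN Treg). Igf1r fell by 2.58 ± 0.51 (limma, adjusted p = 0.00856), and Igf2r, a receptor that clears IGF2, fell by 1.17 ± 0.24 (adjusted p = 0.00947). Insr, the insulin receptor, had a difference of -1.40 ± 0.37 (adjusted p = 0.0232), a call lost without MLN sample 1 (0.088), 2 (0.0513) or 3 (0.0744), without a detection filter (0.0673) and as the mean of its probes (-0.47, adjusted p = 0.202). Irs2, given above, was the 1 that was higher. Of 16 effector genes set against the naive program, 11 were higher and 1 lower, with a median of 2.13. Rora, a nuclear receptor of effector cells, rose by 5.71 ± 0.33 (limma, adjusted p = 0.00011), the cytokine gene Il10 by 5.20 ± 0.20 (4.9e-05) and Id2, which blocks E proteins as Id3 does, by 4.56 ± 0.27 (0.00011). The integrin gene Itgae fell by 1.20 ± 0.24 (0.00831).

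**Figure D4:**
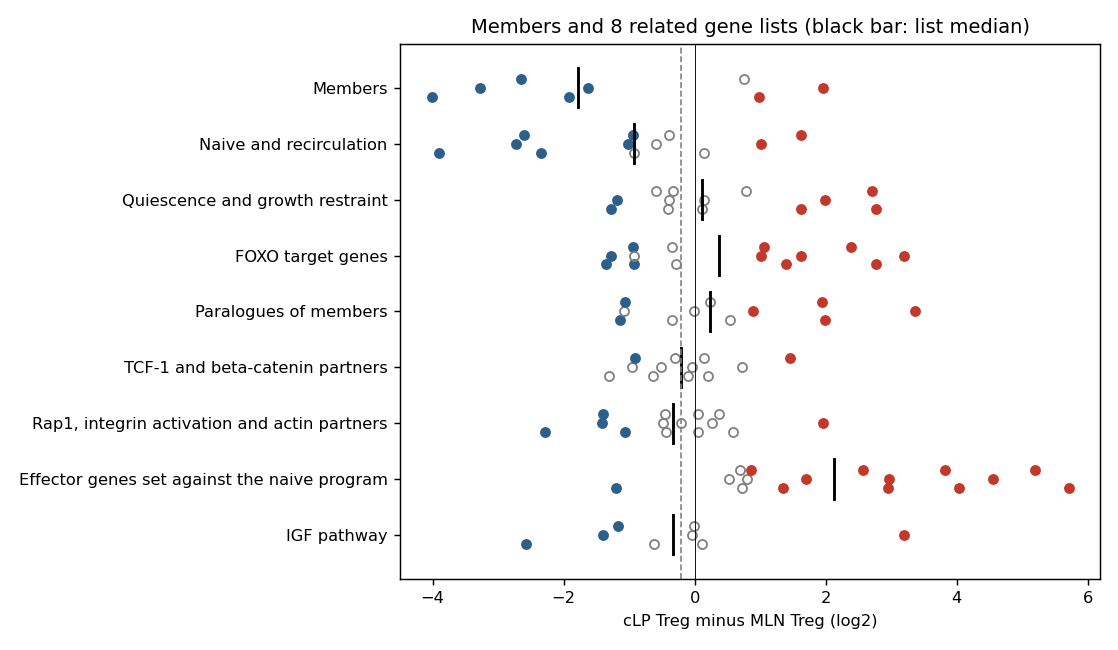
Difference of each gene, cLP Treg minus MLN Treg (log2, horizontal axis) for the measured members and 8 related lists, filled where the adjusted p was under 0.05, red for higher and blue for lower in cLP Treg. Black bars are list medians and the dashed line is the median of all genes, -0.21. The members' median of -1.77 is the lowest and the effector genes' median of 2.13 the highest, among sets chosen with earlier results of these data known.

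The 5 falls kept their call under each of the 23 alternatives run, from scaling and background correction to the removal of each array, except that Rasgrp2 was not tested with detection required on all 6 arrays. Across them Igfbp4 ran from -4.36 to -3.20, Evl from -3.70 to -2.94, Actn1 from -3.10 to -2.43, Rasgrp2 from -2.34 to -0.95 and Lef1 from -1.92 to -1.07. Their adjusted p stayed between 8.7e-05 and 0.0322 (limma). The rises were less stable: Foxp1 kept its call in 18 of 23 alternatives and Satb1 in 10 of 23, with a positive difference in all of them.

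**Figure D5:**
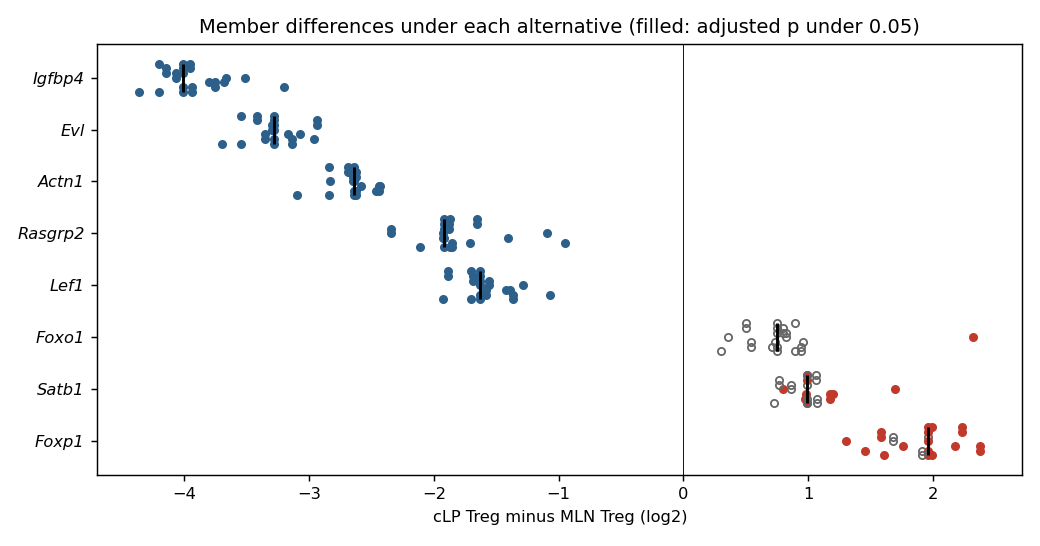
Difference of each measured member, cLP Treg minus MLN Treg (log2, horizontal axis), under each alternative (points, filled where the adjusted p was under 0.05) and as reported (black bar). Every point of Igfbp4, Evl, Actn1, Rasgrp2 and Lef1 is filled and below 0, and open points occur for Foxo1, Satb1 and Foxp1.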

How the data were processed

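The deposited probe table gives linear intensity values that are not normalised, and GenomeStudio 1.6.0 is named in the submitters' processing notes. Beside each signal stands a deposited fraction under a detection p-value heading. It increased with brightness (rank correlation at least 0.991) and was taken as the share of negative controls that were dimmer, so detection p was 1 minus it. The deposited series matrix gives log2 values, found to be log2 signals after subtraction of each array's own percentile 75 on that scale, with no centring of genes and with medians of -0.596, -0.689 and -0.661 for cLP Treg samples 1 to 3 and -0.728, -0.607 and -0.848 for MLN Treg samples 1 to 3. Probes were matched between the tables by their 6 signals (tolerance 0.1). The platform annotation gave 34885 probes 1 symbol, 18 several and 10378 none.

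Groups came from the source label. The members and lists were chosen with earlier results of these data known. The analysis used limma 3.58.1 (R 4.3.3), with normexp (control moments inferred through detection p, offset 16), quantile normalisation, detection p under 0.05 on at least 3 arrays, then lmFit and eBayes without a block, tested on simulated data. Per gene the probe with the highest mean was used. Where no array of a group detected it, the fold is a bound against, per array, the higher of the lowest detected signal and its own value. Named were every member and probe, markers, and from each list at most the 3 genes past the threshold with the largest differences in each direction; Actn4, Rassf5, Axin2, Itgal and Itgb2 were chosen after their values were seen. Slide and scan of each array were not used here, so no batch was fitted, and the number of arrays limits the precision. Alternatives covered scaling, background, offset, filter, probe choice, centring, variance trend, the replicate block and leaving out each sample. Same-numbered samples did not deviate together.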

Additional observations from a re-analysis of the deposited data

Results flagged for a closer look

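A pair of member probes that were too often undetected to be tested were detected in cLP Treg and on no MLN array. The second Foxp1 probe (ILMN_2552236) had a deposited signal of 337.8, 109.6 and 98.9 in cLP Treg samples 1, 2 and 3, against 148.0, 132.4 and 101.2 in MLN Treg, and was detected in cLP sample 1 alone. The Lef1 probe ILMN_1233230 had 106.0, 226.0 and 126.2 in cLP Treg, against 101.9, 95.4 and 74.1 in MLN Treg, and was detected in cLP samples 2 and 3, so it ran against the reported Lef1 probe, which was lower in cLP Treg. Both were annotated to cDNA clones. Neither difference was tested.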

How the results depend on the processing

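The direction of each measured member was the same in all 183 comparisons of a member with an alternative, and the call in 164 of them. With each sample left out in turn, the number of members higher ran from 0 to 2 and of members lower stayed at 5, genes past the threshold from 1554 to 3223 (2974 with all samples; 1664 without MLN sample 2 and 1775 without MLN sample 3), members called from 5 to 7, and probe pairs from 415 to 887 (792 with all). The differences then ran from 0.77 to 1.17 for Satb1 and from 1.85 to 3.02 for its other probe, from 1.58 to 2.38 for Foxp1, and from 3.10 to 4.80 for the other Foxo1 probe. Foxp1 (1.96, adjusted p = 0.0545), Satb1 (0.99, 0.0509), its other probe (2.40, 0.118) and the other Foxo1 probe (3.89, 0.0786) lost their calls without a detection filter, which left 0 members higher. Satb1 also lost it with median scaling (0.73, 0.0805) and with the replicate block (0.99, 0.0713), which each left 1 member higher. The labels give both groups replicate numbers 1 to 3, but deviations of same-numbered samples correlated at -0.165, -0.105 and -0.011, and no sample matched best with its own number. The block changed no other member's call, ended those of Il7r, Foxp4 and Kit given above, and left 2453 genes past the threshold. With detection on all 6 arrays Rasgrp2 was not tested and 379 probe pairs passed. Foxo1 passed as the mean of its probes (2.32), and Tsc1 reversed (1.73). The Foxp3 difference, never past the threshold, was 0.21 with the mean of its probes, 0.20 with the median difference set to 0, and positive without cLP sample 2 or 3 or MLN sample 2 or 3 (-0.15 to 0.10 over samples left out). Of the genes called, 37.3% were higher in cLP Treg (median of all genes -0.21), against 21.5% with median scaling (median -0.51), 24.1% in the deposited values (-0.30) and 50.4% with the median set to 0. Low signal over background limits the values of Rasgrp2 and leaves Bach2 with none.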

Other observations

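Among all named probes past the detection filter, 857 were annotated to a cDNA clone (an accession starting with AK) and 12426 to a RefSeq transcript. Of the clone probes, 32.6% were higher and 4.55% lower in cLP Treg (limma, adjusted p under 0.05), with a median difference of 0.54. Of the RefSeq probes, 12.8% were higher and 19.0% lower, with a median of -0.17. The clone probes were dimmer, at a median log2 level of 6.76 on cLP arrays against 6.00 on MLN arrays, where the RefSeq probes had 7.95 on cLP arrays against 8.12 on MLN arrays. In settings chosen after seeing the data, the share of clone probes called higher was 29.9% with median scaling, 27.8% in the authors' deposited values and 26.7% without background correction. The share of RefSeq probes called higher was 9.83%, 10.2% and 12.5% in the same order of settings. None of these settings changed the detection filter, which a dim probe can pass through the group where it is higher.

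Within genes, 501 clone probes could be set against a brighter RefSeq probe of the same gene. The clone probe's difference was called above that of its partner in 30.3% of pairs and below in 3.79% (limma, adjusted p under 0.05). Pairs of RefSeq probes were called above in 8.81% and below in 5.25%. The median pair difference, over called and uncalled pairs together, was 0.98 for the clone probes and 0.11 for the RefSeq pairs. Among the 18 member probes 4 were clone probes. The Satb1 clone probe passed the filter and rose by 2.40, where the RefSeq probe of Satb1 rose by 0.99 and the difference between them did not pass (adjusted p = 0.104), and those of Foxp1 and Lef1 were detected on cLP arrays and on 0 MLN arrays, as given above. The part of probe brightness in this pattern, and that of probes passing the filter only through the group where they were higher, was not tested.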
